A study of Mus musculus with 6 samples.

Results

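The genes described here are 10 targets of the transcription factor p53, namely Mdm2, Trp53inp1, Ccng1, Bbc3, Bax, Phlda3, Pmaip1, Zmat3, Perp and Aen, in mouse jejunal epithelium after induction of a Musashi transgene. A gene was measured through the array row that carries its symbol and no other, and 9 of the 10 genes had such a row, 1 row each, among 19938 genes tested. Bax was not analysed here for expression. RNA of epithelial cell preparations from the jejunum was hybridised to 6 whole-transcript arrays. The 3 control arrays came from mice with R26-M2rtTA, a doxycycline-dependent transcriptional activator expressed from the widely active Rosa26 locus. The 3 transgenic arrays came from mice that carried R26-M2rtTA together with a TRE-driven Musashi gene, which the series text names Msi1 and the genotype label MSI2. All mice, controls included, drank doxycycline for 24 h before the cells were isolated, with no strain, age or sex stated for them. Values are log2 signals normalized between arrays, so 1 unit is a doubling of signal.

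p53 is a transcription factor that is held low in unstressed cells, largely because its own target Mdm2 marks it for destruction. When DNA damage, stalled ribosome assembly or other stress stabilises it, p53 binds a pair of short half-sites in the DNA near its targets and raises genes that arrest the cell cycle, repair DNA, restrain growth signals or start cell death. In the small intestine the pathway is known above all from the crypt, where cells die within hours of irradiation, partly through Bbc3, also called PUMA. Several targets, Pmaip1 among them, also respond to other transcription factors, so their level is not a measure of p53 activity alone.

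The induced gene separated the groups. Msi1 was 6.95, 7.03 and 6.86 on the control arrays and 12.51, 12.68 and 12.62 on the transgenic arrays. Msi2 was 8.59, 8.71 and 8.62 on the control arrays and 8.57, 8.08 and 8.01 on the transgenic arrays, so it was not raised on any array of the genotype labelled MSI2. Transgenic replicate 1 stood apart from the rest: across genes its correlation with the other 5 arrays was 0.922 to 0.951, and each other array had a correlation of 0.996 with at least 1 other. Each count of genes past the test's threshold with all arrays is therefore also given without that array. Epithelial markers such as Epcam and Krt8 were high on all arrays, with a summed log2 signal over 8 markers of 94.6 to 94.8 in controls and 93.4 to 94.99 in transgenic arrays. With all arrays 1 of these 8 markers, Cdh1, passed the limma test as higher (0.34, adjusted p = 0.0415), and 0 as lower. Of all genes 6.04% and 5.84% did. Without transgenic replicate 1, 1 was higher and 1 lower, where 14% and 14.5% of all genes passed. Single markers moved in opposite directions on that array. Vil1 was 10.82 there against 12.08 to 12.19 in controls, and Krt18 was 11.79 against 10.27 to 10.73. The number of arrays limits the precision.

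The DNA near the start of the genes was read first, to show what p53 recognises. RefSeq promoter windows (build GRCm38.p6, 300 bases, from 250 before to 50 after each annotated start) were at hand for 6 of the 10 genes: Mdm2, Ccng1, Bbc3, Bax, Phlda3 and Aen. They were searched for the p53 half-site, a stretch of 10 bases with the core CNNG, in which both N are A or T. The pattern is its own reverse complement, so 1 search covers both strands. An exact half-site lay in the windows of 4 of these 6 genes, against 2582 of all 27025 genes with a window (9.55%). Each is printed with up to 10 bases on either side, the half-site in capitals, together with those of Gadd45a and Rap2b, chosen after their values were seen because they rose among the other targets described further on. Of 28 other targets with a window 9 held a half-site. Among them were Cdkn1a, not analysed here for expression, and Ddit4l, Ei24, Gtse1, Polk, Rps27l and Sesn1, which did not pass the test of expression. The windows of the risers Plk3, Sesn2 and Slc19a2 held none, and no window was at hand for the riser Rrm2b.
Mdm2: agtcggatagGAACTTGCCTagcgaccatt
Ccng1: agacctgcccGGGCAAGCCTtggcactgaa
Bax: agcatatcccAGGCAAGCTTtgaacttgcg
Aen: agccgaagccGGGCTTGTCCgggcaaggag
Gadd45a: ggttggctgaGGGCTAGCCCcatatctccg
Rap2b: gcgacgtactGGGCATGCTCggctggg
These lie at chr10:117710925-117710954 (minus strand) for Mdm2, chr11:40755452-40755481 (minus) for Ccng1, chr7:45467080-45467109 (minus) for Bax, chr7:78895927-78895956 (plus) for Aen, chr6:67037428-67037457 (minus) for Gadd45a and chr3:61364530-61364556 (plus) for Rap2b. The half-sites of Mdm2, Ccng1 and Bax begin 186, 185 and 201 bases upstream of the start, that of Gadd45a 40 bases upstream, and that of Rap2b 33 bases downstream of it. Aen has 2 annotated starts, and its half-site begins 10 bases downstream of one and 121 bases upstream of the other. A full site, 2 half-sites at most 13 bases apart with both cores kept and at most 2 mismatches over their 20 bases, was found in the Bax window, where 2 such matches share the printed half-site, and in 667 of the 27025 genes (2.47%). The windows of Bbc3 and Phlda3 held neither pattern. Of the 28 other targets 4 held a full site (14.3%), namely Cdkn1a, Gtse1, Rps27l and Sesn1. A match describes letters and is not evidence of binding, and p53 is known to act on Mdm2 mainly through sites in its first intron, outside this window.

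Of the 9 measured genes 3 rose in the transgenic epithelium and 0 fell. The risers were Pmaip1, Trp53inp1 and Phlda3, which have roles in cell death, in p53 feedback and in restraint of AKT signalling. Of all 19938 genes 11.9% passed the same test (limma, adjusted p under 0.05 over all genes), 6.04% as higher and 5.84% as lower. On 6 of the 9 genes every transgenic array lay above every control array, against 16% of all genes, and on 1, Bbc3, every transgenic array lay below, as for 18.2% of all genes. The 9 differences had a median of 0.31 log2 units, and that of all genes was -0.04. At an unadjusted p under 0.05 the same limma test gave 6 higher and 0 lower, against 12.3% and 12.7% of all genes. The targets were chosen with earlier results of these data known, so these shares describe the list and do not test it.

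Without transgenic replicate 1, 6 of the 9 rose and 0 fell, where 14% of all genes passed as higher. With any other array left out the count fell to 0, or to 1 without control replicate 3. The calls over all 19938 genes fell in those fits too, from 2368 to between 683 and 1759. The same totals stand beside such counts for the lists below. The median difference held between 0.29 and 0.34 in these 6 settings. The median over the 9 genes lay 0.33, 0.34 and 0.26 above the control mean on transgenic replicates 1, 2 and 3, so it was of like size on each of them.

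**Figure D1:**
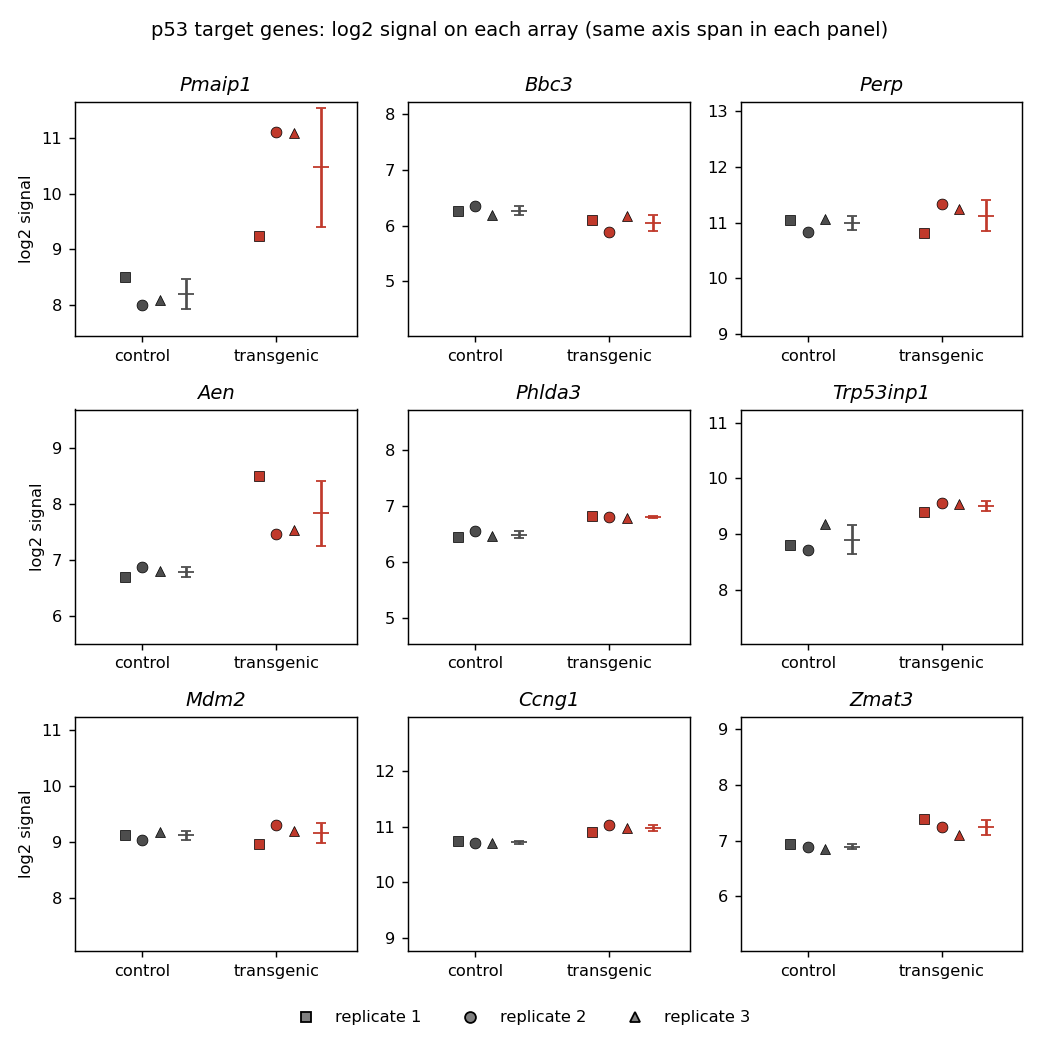
Log2 signal (vertical axis, the same span of units in each panel) of the 9 measured p53 targets on the 3 control arrays (grey) and the 3 transgenic arrays (red), with the mean and SD beside each group. Pmaip1 and Aen stand out from the other panels, and transgenic replicate 1 (squares) is the lowest transgenic array for Pmaip1 and the highest for Aen.

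Pmaip1 changed most. It encodes NOXA, a small BH3-only protein that binds and neutralises the survival protein MCL1. Its signal was 8.51, 7.996 and 8.09 on the control arrays and 9.24, 11.10 and 11.08 on the transgenic arrays. The groups did not overlap, and transgenic replicate 1 sat closer to the controls than to its own group. The control mean of 8.20 ± 0.28 and the transgenic mean of 10.47 ± 1.07 (SD over 3 arrays) differed by 2.27 (SE 0.517, 95% interval 1.02 to 3.53, limma adjusted p = 0.0408) or 4.84-fold. Transgenic replicates 2 and 3 alone gave 2.89 (SE 0.148, limma adjusted p = 9.16e-06), a 7.41-fold rise. With any array other than transgenic replicate 1 left out, the adjusted p was 0.104 to 0.159 and the call was lost, while the difference stayed between 1.96 and 2.43. Of the 9 genes it had the largest difference in both fits.

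Bbc3, the BH3-only protein PUMA and the best known mediator of p53-dependent death in crypts, did not follow Pmaip1. Its signal was 6.26, 6.35 and 6.20 on the control arrays and 6.10, 5.89 and 6.18 on the transgenic arrays. All transgenic values lay below the controls, replicate 3 only just. The difference of -0.21 (SE 0.104, 95% interval -0.47 to 0.04) did not pass, with a limma adjusted p of 0.279. The interval reaches to no more than 0.04 log2 units above the controls, far short of the lower bound for Pmaip1. Bbc3 was a dim row, however, with a mean of 6.16 over the 6 arrays against 9.33 for Pmaip1. That mean lies below the array medians of 6.27 to 6.34, and dim signals are compressed, so the 2 bounds are not fully comparable.

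Aen, an exonuclease that helps to degrade DNA in dying cells, had the second largest difference. Its signal was 6.69, 6.87 and 6.80 on the control arrays and 8.51, 7.46 and 7.54 on the transgenic arrays. The groups did not overlap, and here transgenic replicate 1 was the highest array. The difference of 1.05 (SE 0.283, 95% interval 0.36 to 1.73, 2.06-fold) narrowly missed the threshold, at a limma adjusted p of 0.0689. Transgenic replicates 2 and 3 alone gave a smaller difference that passed, 0.71 (SE 0.0908, limma adjusted p = 0.000614).

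Perp, a membrane protein of desmosomes that also promotes p53-dependent death, was 11.05, 10.84 and 11.06 on the control arrays and 10.80, 11.33 and 11.24 on the transgenic arrays. Transgenic replicate 1 was the lowest of all 6 arrays and the other transgenic arrays were the highest, so the groups overlapped. The difference was 0.14 (SE 0.159, 95% interval -0.25 to 0.53, limma adjusted p = 0.678). Without transgenic replicate 1 it was 0.30 and stayed just outside the threshold (limma adjusted p = 0.0538).

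Phlda3, a pleckstrin homology protein that competes with AKT for membrane lipids and so restrains AKT, rose by a small and even amount. Its signal was 6.44, 6.55 and 6.47 on the control arrays and 6.82, 6.81 and 6.78 on the transgenic arrays. Of the 9 genes it varied least among the transgenic arrays (SD 0.0221). Its row was the dimmest of the 9 after that of Bbc3, with a mean of 6.64 over the 6 arrays. Dim signals are compressed. The difference was 0.31 (SE 0.0749, 95% interval 0.13 to 0.50, limma adjusted p = 0.0473), or 1.24-fold. Among the leave-one-out fits, the call held only without transgenic replicate 1 (adjusted p = 0.0247) and was lost without any other array (0.0753 to 0.205). It was also lost when the dimmest 40% of genes were removed (limma adjusted p = 0.0619).

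Trp53inp1, a stress protein that assists the phosphorylation of p53 and thus feeds back positively, rose 1.52-fold. Its signal was 8.81, 8.71 and 9.19 on the control arrays and 9.40, 9.56 and 9.54 on the transgenic arrays. The groups did not overlap, and control replicate 3 came closest to the transgenic arrays. The difference was 0.60 (SE 0.143, 95% interval 0.25 to 0.95, limma adjusted p = 0.0474). It passed without control replicate 3 (0.0345) and without transgenic replicate 1 (0.00842), and not without any of the other 4 arrays (0.111 to 0.185).

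Mdm2, the ubiquitin ligase that closes the negative feedback loop on p53 and is widely used as a readout of p53 activity, showed no detectable difference. Its signal was 9.13, 9.03 and 9.18 on the control arrays and 8.96, 9.31 and 9.19 on the transgenic arrays. Transgenic replicate 1 was the lowest array and replicate 2 the highest. The difference was 0.04 (SE 0.114, limma adjusted p = 0.884), and its 95% interval of -0.24 to 0.32 spans 0.849- to 1.25-fold. The sign was not stable: it turned negative when the values were quantile-normalized again (-0.02) and without transgenic replicate 2 (-0.04).

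Ccng1, or cyclin G1, which directs a phosphatase to Mdm2, and Zmat3, an RNA-binding protein that controls splicing, both differed a little. Ccng1 was 10.74, 10.72 and 10.70 on the control arrays and 10.91, 11.03 and 10.98 on the transgenic arrays. Its groups did not overlap, and the difference of 0.25 (SE 0.0748, 95% interval 0.07 to 0.44) had a limma adjusted p of 0.0881. Zmat3 was 6.95, 6.89 and 6.85 on the control arrays and 7.38, 7.24 and 7.11 on the transgenic arrays. Its groups did not overlap either, and the difference of 0.35 (SE 0.0963, 95% interval 0.11 to 0.58) had a limma adjusted p of 0.0734. Both passed as higher without transgenic replicate 1, Ccng1 by 0.28 (adjusted p = 0.0288) and Zmat3 by 0.28 (0.0430), and in none of the other leave-one-out fits.

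**Figure D2:**
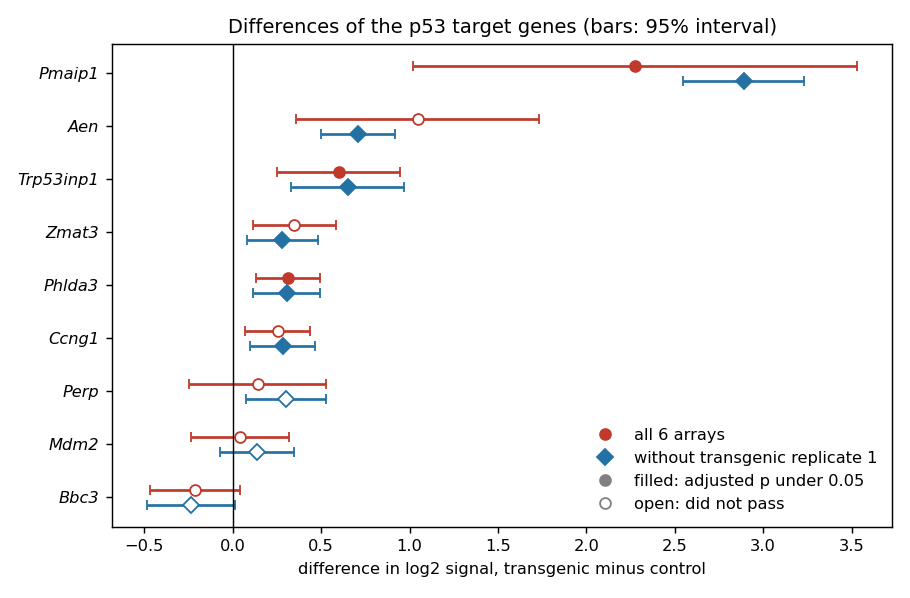
Difference in log2 signal, transgenic minus control (horizontal axis), for each measured p53 target with its 95% interval, from all 6 arrays (red circles) and without transgenic replicate 1 (blue diamonds); filled symbols passed the limma test and open ones did not. The order runs from Bbc3 at -0.21 to Pmaip1 at 2.27, and 3 red and 6 blue symbols are filled.

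The same 9 genes did not move in step across the transgenic arrays. Pmaip1 lay 1.04, 2.90 and 2.88 above the control mean on replicates 1, 2 and 3, whereas Aen lay 1.72, 0.67 and 0.75 above it. Zmat3, like Aen, lay highest on replicate 1, at 0.49 against 0.35 and 0.21 on replicates 2 and 3, while Perp and Mdm2 lay below the control mean on replicate 1 (-0.18 and -0.15) and above it on the other transgenic arrays. Trp53inp1, Ccng1 and Phlda3 lay above the control mean on each transgenic array, by 0.50 to 0.66, 0.19 to 0.31 and 0.29 to 0.33. By an exact permutation test over arrays, two-sided, p was 0.1 for the 7 genes without overlap, the smallest value that 3 arrays a group allow, 0.5 for Perp and 0.8 for Mdm2.

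The genes whose log2 signals followed a member most closely over the 6 arrays were sought among all named genes, as a description. Pmaip1 was followed best by Serinc3 and by Zfp36, which encodes an mRNA decay protein (Pearson r = 0.997 for both). Aen was followed best by Nat10, a nucleolar RNA acetyltransferase, and Spry4, a brake on receptor tyrosine kinase signalling (0.999 and 0.998). Trp53inp1 was followed best by the stress kinase gene Mapk14 (0.9997) and Gas2l3 (0.993), and Bbc3 by Bcl2l12 and Arhgef15 (0.993 for both). With 2 groups and an array that stands apart, high values of r over 6 arrays are easily reached.

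The wider set of p53 targets was split in direction. Of 29 measured other targets 6 rose and 3 fell, which is 31% against 11.9% of all genes, with a median of -0.06. Rrm2b, a subunit of ribonucleotide reductase that supplies nucleotides for repair, was 7.14, 6.87 and 7.01 on the control arrays and 8.04, 8.16 and 8.04 on the transgenic arrays. It rose by 1.08 (SE 0.0994, limma adjusted p = 0.00305), about as far as Aen but with far less spread. The stress kinase gene Plk3 rose by 1.39 (adjusted p = 0.00681), from 8.37, 8.20 and 8.01 on the control arrays to 9.24, 9.74 and 9.78 on the transgenic arrays. Rap2b, a small GTPase, rose by 1.10 (adjusted p = 0.00608), from 6.64, 6.70 and 6.39 to 7.87, 7.56 and 7.58. These 3 passed with each of the 6 arrays left out in turn, which none of the 9 listed targets did.

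The other 3 risers, named after their values were seen, were the thiamine transporter gene Slc19a2 (0.97), the mTORC1 inhibitor Sesn2 (0.70) and the growth arrest gene Gadd45a (0.64), with adjusted p from 0.0234 to 0.0316. Each of these 3 passed without transgenic replicate 1 or 3 and lost its call without any other array (adjusted p up to 0.108, 0.133 and 0.0800). The genes that fell were Dcxr, a sugar and carbonyl reductase (-0.80, adjusted p = 0.0162), Trp53i11 (-0.60, 0.0197) and the epoxide hydrolase gene Ephx1 (-0.53, 0.0184). Ephx1 and Trp53i11 kept the call only without transgenic replicate 1, and Dcxr also without control replicate 3 or transgenic replicate 3; their adjusted p otherwise reached 0.0937, 0.0759 and 0.0856. Without transgenic replicate 1 the list had 7 higher and 6 lower of 29, where 14% and 14.5% of all genes passed, and with another array left out 3 to 6 higher and 0 or 1 lower.

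Among the targets that did not pass, transgenic replicate 1 often differed most. The death receptor gene Fas was 7.77, 7.65 and 7.70 on the control arrays and 5.53, 7.71 and 7.32 on the transgenic arrays, a difference of -0.85 (limma adjusted p = 0.421). Sesn1, a stress-induced relative of Sesn2, was 10.66, 10.50 and 10.86 on the control arrays and 8.67, 10.84 and 10.86 on the transgenic arrays (-0.55, adjusted p = 0.665). For both genes replicate 1 was the lowest array by a wide margin, and the other transgenic arrays lay near the controls. Plk2, a relative of Plk3, was 5.93, 5.68 and 5.34 on the control arrays and 7.44, 6.70 and 6.37 on the transgenic arrays, with no overlap (1.19, adjusted p = 0.0556). Cdkn1a, whose row the annotation shares with another symbol, was not analysed here for expression.

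**Figure D3:**
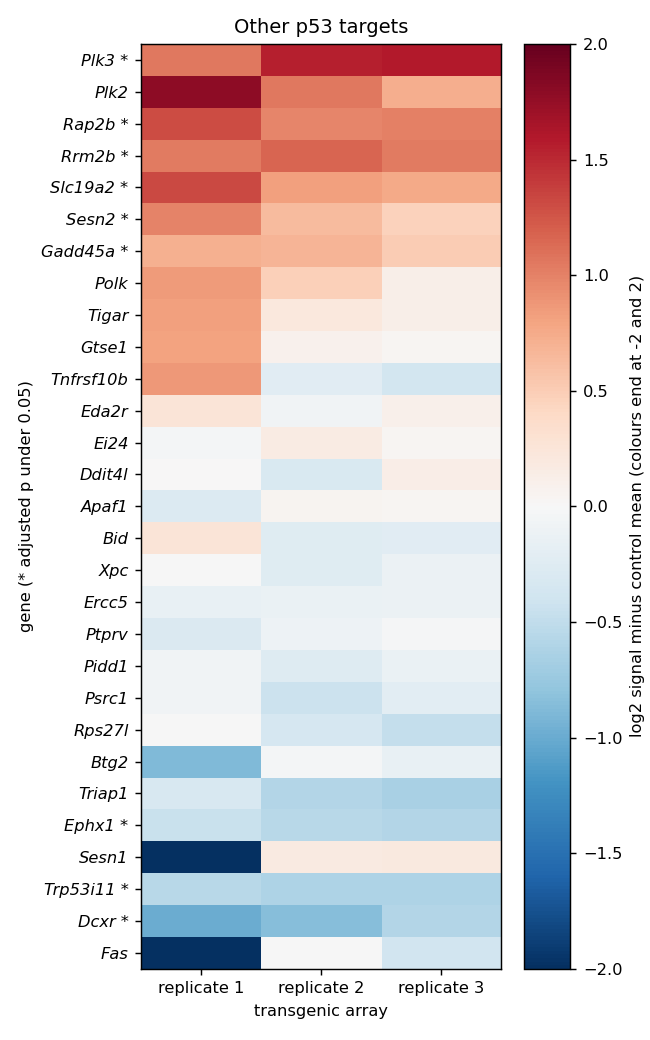
Log2 signal of 29 other p53 targets (rows, ordered by difference) on each transgenic array, minus the control mean (colour, red above and blue below); stars mark genes that passed the limma test. Plk3, Rap2b and Rrm2b are red on all 3 arrays, while Fas and Sesn1 are dark blue on replicate 1 alone.

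Of 24 measured genes that control p53, 1 rose and 1 fell (8.33%, against 11.9% of all genes). Without transgenic replicate 1, 5 rose and 6 fell, where 14% of all genes passed as higher and 14.5% as lower. Hipk2, a kinase that activates p53 for cell death, fell from 10.97, 11.10 and 10.99 on the control arrays to 10.33, 10.33 and 10.32 on the transgenic arrays, by 0.69 log2 units (SE 0.0769, limma adjusted p = 0.00501), and passed with each array left out. Kat5, the acetyltransferase TIP60, rose by 0.34 (adjusted p = 0.0392), a call kept only without transgenic replicate 1 (0.0577 to 0.156 without another array). Mdm4, the partner of Mdm2 in holding p53 down, was 8.91, 8.66 and 8.81 on the control arrays and 9.03, 9.003 and 8.83 on the transgenic arrays (difference 0.17, 95% interval -0.09 to 0.42, limma adjusted p = 0.409). The arginine methyltransferase gene Prmt5 (1.15) and the checkpoint kinase genes Chek1 (1.03) and Chek2 (-0.57) had the largest differences among those that did not pass. With an array other than transgenic replicate 1 left out, 0 regulators rose and 1 fell, namely Hipk2. Trp53 itself was not analysed here.

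The Bcl-2 family partners of Pmaip1 and Bbc3 also moved in both directions. Of 12 measured, 2 rose and 1 fell (25%, against 11.9% of all genes, 6.04% as higher and 5.84% as lower). Mcl1, the survival protein to which NOXA binds, was 10.95, 10.84 and 10.92 on the control arrays and 11.20, 11.56 and 11.47 on the transgenic arrays, a rise of 0.51 (SE 0.114, limma adjusted p = 0.0393). Like Pmaip1, it was raised least on transgenic replicate 1. The survival gene Bcl2l2 rose by 0.40 (adjusted p = 0.0472) and the BH3-only gene Bad fell by 0.59 (adjusted p = 0.0248), while Bak1, a pore-forming relative of Bax, had a difference of -0.49 that missed the threshold (adjusted p = 0.107). Mcl1 and Bcl2l2 kept the call only without transgenic replicate 1, and Bad also without transgenic replicate 3. Their adjusted p otherwise reached 0.156, 0.173 and 0.114. Without transgenic replicate 1, 3 rose and 2 fell, where 14% and 14.5% of all genes passed; 0 or 1 passed when another array was dropped.

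Cell-cycle genes that p53 lowers indirectly, through p21 and the DREAM repressor complex, differed between the transgenic arrays. Of 18 measured, 0 passed in limma with all arrays, and 1 was higher and 1 lower at an unadjusted p under 0.05. The list median lay 0.66 above the control mean on transgenic replicate 1, and at -0.65 and -0.59 on replicates 2 and 3. Without replicate 1, 16 fell and 1 rose, where 14.5% of all genes passed as lower; with any other array left out 0 passed. Cdk1, the mitotic kinase, was 9.53 to 9.59 on the controls, 11.30 on transgenic replicate 1 and 9.68 and 9.63 on replicates 2 and 3, a difference of 0.65 that did not pass (limma adjusted p = 0.457). Top2a, a topoisomerase of dividing cells, was 9.61 on transgenic replicate 1 and 8.51 and 8.13 on the others (-0.56, adjusted p = 0.440). Chek1, which is also among the regulators, lay above the controls on all 3 transgenic arrays (1.03, adjusted p = 0.182).

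Markers of other cell types were read on the same arrays. Enterocyte markers (8 of 8 measured) had a summed log2 signal of 100.1 to 100.8 in controls and 79.6 to 98.3 in transgenic arrays, and their median relative to the control mean was lowest on transgenic replicate 1 (-2.49, against -0.16 and -0.20). Markers of T cells and intraepithelial lymphocytes (8 of 8 measured) summed to 66.6 to 68.8 in controls and 44.5 to 63.3 in transgenic arrays, with medians of -2.55, -0.62 and -0.68 on replicates 1, 2 and 3. None of these 16 markers passed in limma, where 6.04% of all genes passed as higher and 5.84% as lower. At an unadjusted p under 0.05, 0 were higher and 1 and 2 lower, against 12.3% and 12.7% of all genes. Without transgenic replicate 1, 3 and 6 fell, where 14.5% of all genes passed as lower. Markers of crypt stem and cycling cells (6 of 6 measured) had a median of 0.63 on transgenic replicate 1 and of -0.94 and -0.93 on the others. Olfm4 and Ascl2 of these 6 fell with all arrays, where 5.84% of all genes passed as lower. Without transgenic replicate 1, 5 of the 6 fell, where 14.5% of all genes passed as lower. Lists for B cells, macrophages and dendritic cells, neutrophils, fibroblasts and muscle, and endothelium had medians within 0.10 of 0, with 0 of 27 markers passing. At an unadjusted p under 0.05 in limma, 1 was higher and 3 lower, against 12.3% and 12.7% of all genes. Without transgenic replicate 1, 1 rose and 3 fell, where 14% and 14.5% of all genes passed. The lowest markers of these lists, such as Cxcr2 (4.21) and Adgre1 (4.48), lay near the low end of the scale, where RMA gives no 0. The part of cell makeup in the p53 target differences was not tested, and fewer cells of a type cannot be told apart from less RNA per cell.

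**Figure D4:**
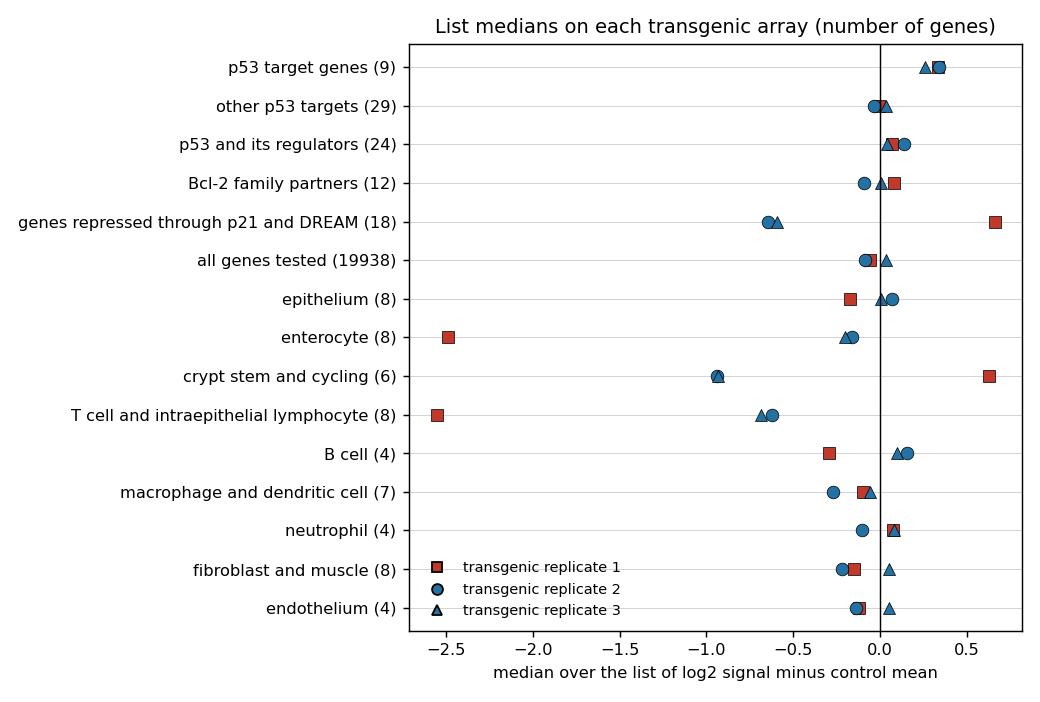
Median over each gene list of log2 signal minus the control mean (horizontal axis) on each transgenic array, with the number of genes in brackets. The p53 targets lie at 0.26 to 0.34 on all 3 arrays. The other p53 targets (-0.04 to 0.03), the regulators (0.04 to 0.14) and the Bcl-2 family partners (-0.09 to 0.08) also differ little between arrays. The cell-cycle, enterocyte, crypt and T cell lists set transgenic replicate 1 (red squares) apart from the other transgenic arrays.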

How the data were processed

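The deposited values are log2 signals per array row, and the submitters' processing notes name RMA and Partek 6.5 without settings. RMA equalises arrays, so a change in total RNA cannot show, and dim signals are compressed. Array medians were 6.27 to 6.34 over 35399 rows. The series text calls the sources animals, so each of the 6 arrays counted as a replicate. Gene names came from the platform annotation (21789 rows with 1 symbol, 1621 with several, 11989 with none), and the row with the highest mean was kept per gene, which left 19938 genes. Transgenic minus control was fitted with limma 3.58.1 in R 4.3.3 (lmFit, eBayes) over all genes with Benjamini-Hochberg adjustment. The threshold was an adjusted p of 0.05. The fit was also run on simulated data with independent noise. No simulated array stood apart, so that run does not cover the case of transgenic replicate 1. Rose and fell mean passed; intervals are 95% limma intervals, ± is SD. The plan was to name all listed targets, per list up to 6 passing and 3 other genes, and the 2 most similar genes per target. Beyond it, Slc19a2, Sesn2, Gadd45a and genes of the motif search and marker lists are named. Similar genes are given only for Pmaip1, Aen, Trp53inp1 and Bbc3. The targets and lists were chosen with earlier results of these data known. Alternatives were scaling, dim-gene filter, replicate blocks, variance model, array weights, mean of rows, threshold and each array left out.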

Additional observations from a re-analysis of the deposited data

How the results depend on the processing

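With 3 arrays a group, few calls are firm. The count of passing p53 targets, 3 with all arrays, was 0 to 6 with 1 array left out. It was 0 with a replicate block by the title number and 1 with trend and robust settings. It was 2 when the values were quantile-normalized again and 2 with the dimmest 40% of genes removed. It was 7 with array weights (6 higher, 1 lower, Bbc3) and 6 at an adjusted p under 0.1. The count of other p53 targets, 9, was 3 to 13 with 1 array left out, 5 with the replicate block and 14 with array weights. Over all genes, 2368 became 683 to 5700 with 1 array left out, 733 with the block, 4019 with a block by the description number on the 4 arrays that share one, and 5770 with array weights. Deviations of arrays with the same title number from their group means correlated at -0.0696, -0.168 and -0.122. No array correlated best with its own number. With 3 arrays a group and transgenic replicate 1 standing apart, these values cannot decide whether the arrays were paired. The median difference of the targets, 0.31, was 0.35 with arrays shifted to equal medians, and 0.29 to 0.34 with 1 array left out. Of the single targets, Mdm2 turned sign with quantile normalization (-0.0195) and without control replicate 2 or transgenic replicate 2 (-0.0377 to 0.137 over the 6 left-out arrays), and the other 8 kept theirs in each of 14 settings. Of these 14, Pmaip1 lost its call in 6, Trp53inp1 in 7 and Phlda3 in 9, while Aen gained one in 3, Ccng1 and Zmat3 in 2 each and Bbc3 in 1, as lower. The causes of these changes were not tested. Scaling moved the median of all genes by less than 0.1.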
